A study of Mus musculus with 7 samples.

Results

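The 9 genes described here handle arginine and polyamines or encode chitinase-like proteins: Arg1, Arg2, Nos2, Ass1, Odc1, Oaz1, Sat1, Chil1 and Chil3. They were picked from the table by symbol, and all 9 were among the 16047 genes of the table. All 9 also had a mean of at least 1 RPKM (a read count scaled to the length of the transcript and to the library's mapped reads) and were tested with 9594 genes in all. Neutrophils were sorted from the livers of C57BL/6 mice at 24 h after acetaminophen-induced liver injury (AILI), and 3′ RNA-seq compared livers with and without infiltrating Ly6Chi monocytes. Both groups received 300 mg/kg of acetaminophen, and the study's methods give male mice of 8 to 12 weeks. In the MC-21 group (3 livers, replicates 2 to 4), 400 µL of medium with 29 µg/mL of MC-21, an antibody to CCR2 that depletes circulating Ly6Chi monocytes, was injected from 12 h before acetaminophen and every 24 h. The PBS group (4 livers, replicates 5 to 8) received the saline only, so that the control held neither a control antibody nor conditioned medium. The gate was CD11b+Ly6CloCX3CR1-GFP-Ly6G+, with 50000 cells per liver, and the labels name no allele for the GFP reporter. Uninjured livers are not among the libraries.

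Arginine stands at a branch point in myeloid cells. The arginases Arg1 and Arg2 split it into urea and ornithine, the nitric oxide synthases turn it into nitric oxide and citrulline, and Ass1 begins the path by which citrulline is made back into arginine. Ornithine feeds the polyamines through ornithine decarboxylase (Odc1), which antizyme (Oaz1) binds and directs to the proteasome, while Sat1 acetylates spermidine and spermine for export or breakdown. Chil1 and Chil3 are secreted proteins of the chitinase family that bind sugars without chitinase activity. Arg1 and Chil3 (Ym1) are widely used as marks of alternatively activated mouse macrophages, Chil3 is also made by neutrophils, and hepatocytes hold much Arg1 and Ass1 as enzymes of the urea cycle.

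Libraries were shallow. In a transcript of 1 kb, 1 RPKM was worth between 1.59 reads (MC-21 replicate 3) and 3.96 reads (PBS replicate 8). The summed RPKM of 7 neutrophil markers ranged from 17860 to 30398 over the PBS libraries and from 27227 to 40656 over the MC-21 libraries. Most of this sum was S100a9, at 12275 to 20590 RPKM in PBS and 18142 to 25041 RPKM in MC-21 neutrophils. Of the 7 markers, 0 were called by limma, with 5 log2 fold changes above 0 and 2 below. The sum of 14 monocyte and macrophage markers was between 594 and 730 RPKM in PBS and between 304 and 364 RPKM in MC-21 neutrophils. By limma, 7 of the 14 had a lower level in MC-21 neutrophils at an adjusted p under 0.05, beside 0.427% of all genes tested. The log2 fold change was below 0 in 13 of them, and Adgre1 was at 0.02. The 10 hepatocyte markers summed to between 314 and 647 RPKM in PBS and between 327 and 495 RPKM in MC-21 neutrophils, with 0 called by limma and 0 at an unadjusted p under 0.05. No marker of these 3 lists was at 0 in all libraries. A further 7 endothelial markers had a larger sum than the monocyte and macrophage or the hepatocyte markers. It was between 1052 and 2365 RPKM in PBS and between 1199 and 2142 RPKM in MC-21 neutrophils, with 0 called by limma. In such bulk samples, fewer cells of a type and less RNA per cell cannot be told apart. Over all genes tested, the median log2 fold change (MC-21 minus PBS) was -0.15, with 6655 genes below 0 and 2939 above, and the median over the 9 members was -0.12.

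By the adjusted p of limma, 1 of the 9 members changed, namely Chil3, which was higher in MC-21 neutrophils. Among all 9594 genes, 60 (0.625%) had an adjusted p under 0.05, of which 19 (0.198%) were higher and 41 (0.427%) lower. Scaling moved this split, to 44 higher and 30 lower with median centring and to 26 higher and 29 lower after quantile normalization. Chil3 and Nos2 differed at least 2-fold with an unadjusted p under 0.05 in limma, as did 259 genes (2.70%) in all, and 98 (1.02%) in the higher direction. In these same 2 members no PBS library reached the MC-21 range, and groups were likewise apart in 1280 genes (13.3%), 297 (3.10%) in the higher and 983 (10.2%) in the lower direction. In the remaining 7 members the ranges overlapped. An unadjusted p under 0.05 was reached by 3 members, the other being Ass1, and by 14.7% of all genes.

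**Figure D1:**
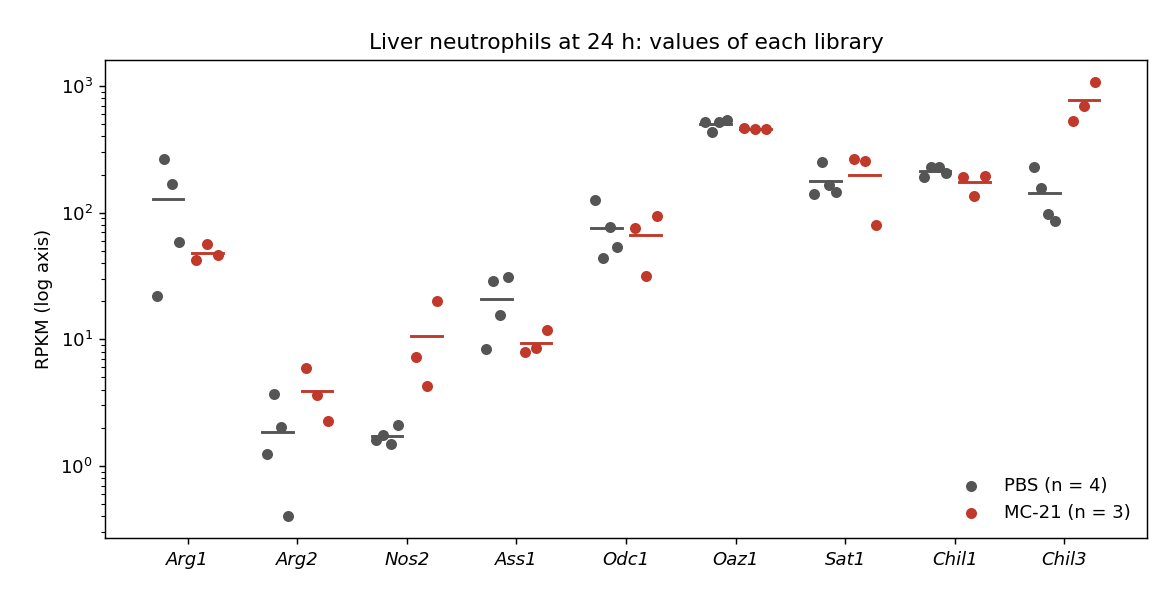
RPKM of each of the 9 members in every library, with the genes side by side on 1 shared logarithmic vertical axis. PBS neutrophils (n = 4) are in grey and MC-21 neutrophils (n = 3) in red, with a bar at each group mean. The groups are apart in Chil3 and Nos2 and overlap in the other 7.

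The first of the chitinase-like genes, Chil3 (ENSMUSG00000040809.9, annotated as Chi3l3, mm9 chromosome 3, 105950472 to 106022425, minus strand) lies in an annotation that overlaps Chil4 (Chi3l4, 106004408 to 106022425), its near copy. Their upstream sequences are shown because the copies were at very unlike levels. They are the RefSeq windows of GRCm38.p6, from 250 bases before to 50 bases after the annotated start, on the minus strand, at chr3:106167515-106167814 for Chil3 and chr3:106219430-106219729 for Chil4. Capitals mark bases that differ from the other sequence or lie opposite a gap, within Chil3 bases 30 to 300 and Chil4 bases 2 to 272. Bases outside these stretches were not aligned and are printed in lower case.
Chil3: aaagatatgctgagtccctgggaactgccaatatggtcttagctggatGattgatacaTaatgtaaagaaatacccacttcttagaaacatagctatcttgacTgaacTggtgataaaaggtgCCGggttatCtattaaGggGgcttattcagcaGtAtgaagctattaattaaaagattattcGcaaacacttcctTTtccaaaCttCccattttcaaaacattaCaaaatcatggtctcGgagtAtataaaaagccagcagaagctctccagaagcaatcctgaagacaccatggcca
Chil4: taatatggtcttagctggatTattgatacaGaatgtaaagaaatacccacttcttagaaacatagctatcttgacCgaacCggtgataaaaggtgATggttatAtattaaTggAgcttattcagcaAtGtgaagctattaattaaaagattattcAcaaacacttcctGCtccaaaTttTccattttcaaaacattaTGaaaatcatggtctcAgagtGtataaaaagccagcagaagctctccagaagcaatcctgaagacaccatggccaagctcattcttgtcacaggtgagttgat
The aligned stretch of 272 positions held 251 identical bases (92.3%), 19 differing bases and 2 gap positions. The letters TATAAA, searched on both strands, were in both windows and in 13.6% of 32851 mouse promoters of the same length. They began at position -3 from the annotated start in Chil3 and at -31 in Chil4. Of the 6 members with a RefSeq window, Chil3 and Oaz1 held TATAAA, in Oaz1 also at -3. The letters AGGAAG (35.4% of promoters) were in both windows as well, and GGGCGG (35.7%) in neither. Such a match is a description of the letters and not a mapped site.

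The annotated transcripts, of 1539 bases each, were 94.3% identical. They shared 18.5% of their 50-base words and 0% of those in the last 300 bases, which is where 3′ libraries place most reads. Chil4 was at 0.239, 0.398, 0 and 0.167 RPKM in PBS replicates 5 to 8 and at 0, 0 and 0.714 RPKM in MC-21 replicates 2 to 4, or about 0 to 3 reads a library. How reads that map to both genes were assigned is not given in the sources used here.

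Chil3 stood at 230, 157, 97 and 85.9 RPKM in PBS replicates 5 to 8 and at 530, 691 and 1084 RPKM in MC-21 replicates 2 to 4. The MC-21 libraries all lay above the PBS libraries, and the libraries of each group spread widely. The log2 fold change was 2.47 (standard error 0.35, 95% confidence interval 1.68 to 3.26, adjusted p = 0.0172 from limma), a 5.54-fold rise on the log2(RPKM + 1) scale. An exact two-sided permutation test over the 7 libraries gave p = 0.0286, the smallest that 4 against 3 allows. This call depended on the libraries and settings. The adjusted p from limma was 0.0571 without PBS replicate 7, 0.0814 without PBS replicate 8, 0.0631 without MC-21 replicate 3 and 0.0689 without MC-21 replicate 4, and 0.155 with no filter on low values, while the log2 fold change stayed between 2.19 and 2.74 over 15 alternatives.

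Chil1 (Chi3l1, ENSMUSG00000064246.4, mm9 chromosome 1, 136078753 to 136086758, plus strand), whose product is known as BRP-39, had overlapping levels in the groups. Its values were 190, 231, 228 and 207 RPKM in PBS replicates 5 to 8 and 190, 136 and 195 RPKM in MC-21 replicates 2 to 4. Only MC-21 replicate 3, the shallowest library, lay clearly below the PBS range. Its log2 fold change was -0.32 (95% confidence interval -0.67 to 0.04, adjusted p = 0.398 from limma), so a fall of more than 0.67 or a rise of more than 0.04 on the log2 scale lay outside the interval. Within each library the ratio of Chil3 to Chil1, on the RPKM scale, was between 0.415 and 1.21 in PBS and between 2.79 and 5.57 in MC-21 neutrophils. Chil1 was thus the higher of the pair in 3 of 4 PBS libraries, and Chil3 in 3 of 3 MC-21 libraries.

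Of 8 other genes listed from the chitinase family, 7 were in the table and 3 had a mean of at least 1 RPKM. The chitinase-domain gene Chid1 had 8.16 ± 2.39 RPKM (SD, n = 4) in PBS and 8.80 ± 1.69 RPKM (SD, n = 3) in MC-21 neutrophils. Ctbs, a lysosomal chitobiase, had 8.34 ± 1.47 and 7.77 ± 1.33 RPKM in the same order, and Ovgp1 had 1.26 ± 0.441 and 1.19 ± 0.968 RPKM. None of these 3 had an unadjusted p under 0.05 in limma, and their ranges overlapped. Chil5 reached at most 1.94 RPKM in a library, and Chia1, an active chitinase, was above 0 in MC-21 replicate 4 alone, at 0.708 RPKM.

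Nos2 (ENSMUSG00000020826.6, mm9 chromosome 11, 78734289 to 78773756, plus strand) encodes the inducible nitric oxide synthase. PBS replicates 5 to 8 had 1.6, 1.75, 1.49 and 2.12 RPKM, and MC-21 replicates 2 to 4 had 7.30, 4.24 and 20.2 RPKM. The PBS libraries lay close together, at 1.74 ± 0.273 RPKM (SD, n = 4), and every MC-21 library was above them. Within the MC-21 group the values differed several-fold, at 10.6 ± 8.45 RPKM (SD, n = 3). In the longest annotated transcript, of 4192 bases, these values correspond to about 19, 24, 17 and 35 reads in the PBS libraries and 109, 28 and 235 reads in the MC-21 libraries. The log2 fold change of 1.83 (standard error 0.40, 95% confidence interval 0.93 to 2.74), a 3.57-fold difference on the log2(RPKM + 1) scale, had an adjusted p of 0.0836 in limma and did not pass the threshold. The exact two-sided permutation test gave p = 0.0286, again the smallest possible.

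MC-21 replicate 4 carried much of the size of the Nos2 difference. Without it the log2 fold change was 1.27, and over all 15 alternatives it was between 1.27 and 2.60, with an adjusted p between 0.0445 and 0.465. The lowest of these was obtained without MC-21 replicate 3, where Nos2 passed and Chil3 did not. The same replicate 4 had the highest Chil3, the lowest monocyte and macrophage marker sum (304 RPKM) and the lowest Kupffer cell marker sum, at 35.0 RPKM against 43.5 and 65.3 RPKM in MC-21 replicates 2 and 3. Not every marker of these lists was lowest in replicate 4, as with Ly6c2, at 44.0 RPKM against 41.7 and 39.2 RPKM in replicates 2 and 3. The part of other cell types in the Nos2 level was not tested.

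Like Nos2, the other genes of nitric oxide synthesis and its cofactor did not pass the test. Of 11 listed, all were in the table, 10 were tested, 0 were called by limma and 2 had an unadjusted p under 0.05. In 9 of the 10 the log2 fold change was below 0, with a median of -0.34, against -0.15 over all genes. Gch1, which controls the entry to tetrahydrobiopterin synthesis, had 17.8 ± 1.43 RPKM (SD, n = 4) in PBS and 18.3 ± 3.41 RPKM (SD, n = 3) in MC-21 neutrophils. Spr, the last enzyme of that path, had 30.9 ± 1.01 and 24.0 ± 0.792 RPKM without overlap (log2 fold change -0.35, adjusted p = 0.274 from limma). For Gchfr, the regulator of Gch1, the log2 fold change was -0.80 (limma, adjusted p = 0.310), with MC-21 replicate 3 inside the PBS range. The endothelial synthase Nos3 had 25.8 ± 6.75 RPKM in PBS and 18.2 ± 1.78 RPKM in MC-21 neutrophils, also without overlap (log2 fold change -0.46, adjusted p = 0.340). Nos3 exceeded Nos2 in every PBS library, and 7 endothelial markers summed to between 1052 and 2365 RPKM in PBS and between 1199 and 2142 RPKM in MC-21 neutrophils, whose part in the Nos3 level was not tested. The neuronal synthase Nos1 was at most at 0.0746 RPKM.

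**Figure D2:**
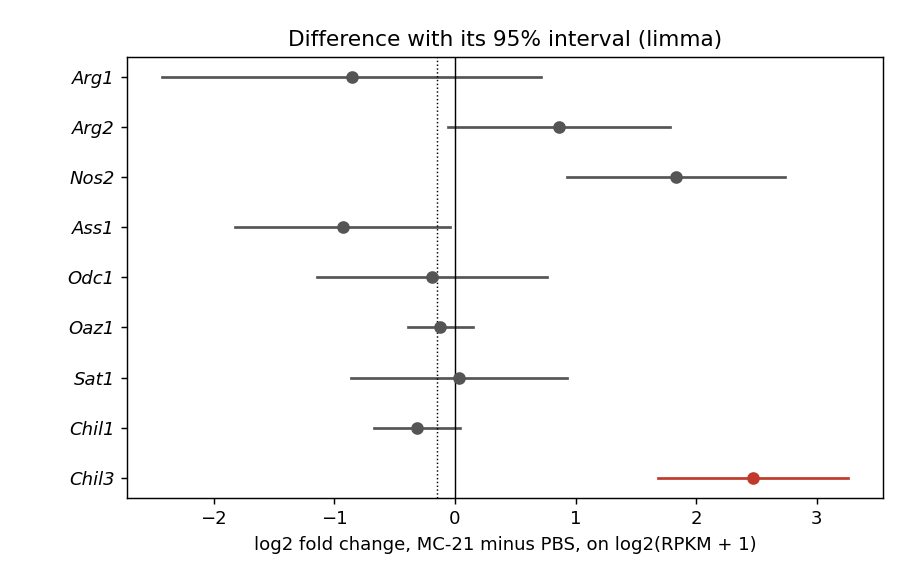
Log2 fold change of each member, MC-21 minus PBS, on log2(RPKM + 1), with its 95% confidence interval from limma, the solid line at 0 and the dotted line at the median of all genes tested (-0.15). The intervals of Chil3, Nos2 and, narrowly, Ass1 exclude 0, and Chil3 (red) passed the adjusted threshold.

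Arg1 (ENSMUSG00000019987.8, mm9 chromosome 10, 24635014 to 24647276, minus strand), the cytosolic arginase, was the member with the widest spread between PBS mice. It had 21.8, 267, 169 and 58.4 RPKM in PBS replicates 5 to 8 and 42.1, 56.6 and 46.3 RPKM in MC-21 replicates 2 to 4. All MC-21 libraries lay inside the PBS range, and PBS replicates 6 and 7 were high while PBS replicate 5 was the lowest of all 7. The means were 129 ± 111 RPKM (SD, n = 4) and 48.3 ± 7.47 RPKM (SD, n = 3). Between them the log2 fold change was -0.86 (standard error 0.70, 95% confidence interval -2.43 to 0.72, adjusted p = 0.619 from limma). That interval takes in both a several-fold fall and a rise. Leaving out each library in turn moved the log2 fold change between -1.51 (without PBS replicate 5) and -0.32 (without PBS replicate 6), with no adjusted p under 0.05.

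Because hepatocytes hold Arg1, its values were set beside the hepatocyte markers. The 10 markers summed to 352, 647, 314 and 430 RPKM in PBS replicates 5 to 8 and to 412, 495 and 327 RPKM in MC-21 replicates 2 to 4. PBS replicate 6, with the highest Arg1, had the highest sum, but PBS replicate 7, with the next highest Arg1, had the lowest. Otc and Cps1, mitochondrial urea cycle enzymes of hepatocytes that are not among the 10 markers, were at most at 0.813 and 0.432 RPKM in any library. Of the 10 markers, Alb ranged from 23.0 to 85.1 RPKM over the libraries and Cyp2e1 from 1.95 to 5.88 RPKM. The part of hepatocyte RNA in the Arg1 level was not tested.

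Arg2 (ENSMUSG00000021125.6, mm9 chromosome 12, 80231764 to 80257288, plus strand), the mitochondrial arginase, was low throughout. It had 1.24, 3.72, 2.03 and 0.399 RPKM in PBS replicates 5 to 8 and 5.92, 3.62 and 2.25 RPKM in MC-21 replicates 2 to 4, about 2 to 30 reads a library. The ranges overlapped, and the log2 fold change of 0.86 (standard error 0.41, 95% confidence interval -0.06 to 1.78, adjusted p = 0.370 from limma) was not past the threshold. Arg1 exceeded Arg2 in all 7 libraries, with a ratio of RPKM between 17.6 and 147 in PBS and between 7.11 and 20.6 in MC-21 neutrophils. The ratio of Arg1 to Nos2 was between 13.6 and 153 in PBS and between 2.29 and 13.3 in MC-21 neutrophils, so that the highest MC-21 ratio fell just short of the lowest PBS ratio.

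Ass1 (ENSMUSG00000076441.4, mm9 chromosome 2, 31325727 to 31376192, plus strand), which joins citrulline and aspartate, had 8.37, 28.9, 15.4 and 31.1 RPKM in PBS replicates 5 to 8. MC-21 replicates 2 to 4 had 7.89, 8.47 and 11.9 RPKM. PBS replicate 5 lay within the MC-21 range and the other PBS libraries above it. The log2 fold change was -0.93 (standard error 0.40, 95% confidence interval -1.83 to -0.04, adjusted p = 0.326 from limma), and it was between -1.29 and -0.69 over the alternatives. The hepatocyte marker sums were 647 and 430 RPKM in PBS replicates 6 and 8, which had the highest Ass1. They were 352 RPKM in PBS replicate 5 and 314 RPKM, the lowest of all, in PBS replicate 7, which had the higher Ass1 of this pair. MC-21 replicates 2 and 3, with low Ass1, had sums of 412 and 495 RPKM, and the part of hepatocyte RNA in Ass1 was not tested. Asl, the next enzyme on the path to arginine, had 10.8 ± 2.48 RPKM (SD, n = 4) in PBS and 12.1 ± 3.10 RPKM (SD, n = 3) in MC-21 neutrophils (log2 fold change 0.15).

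**Figure D3:**
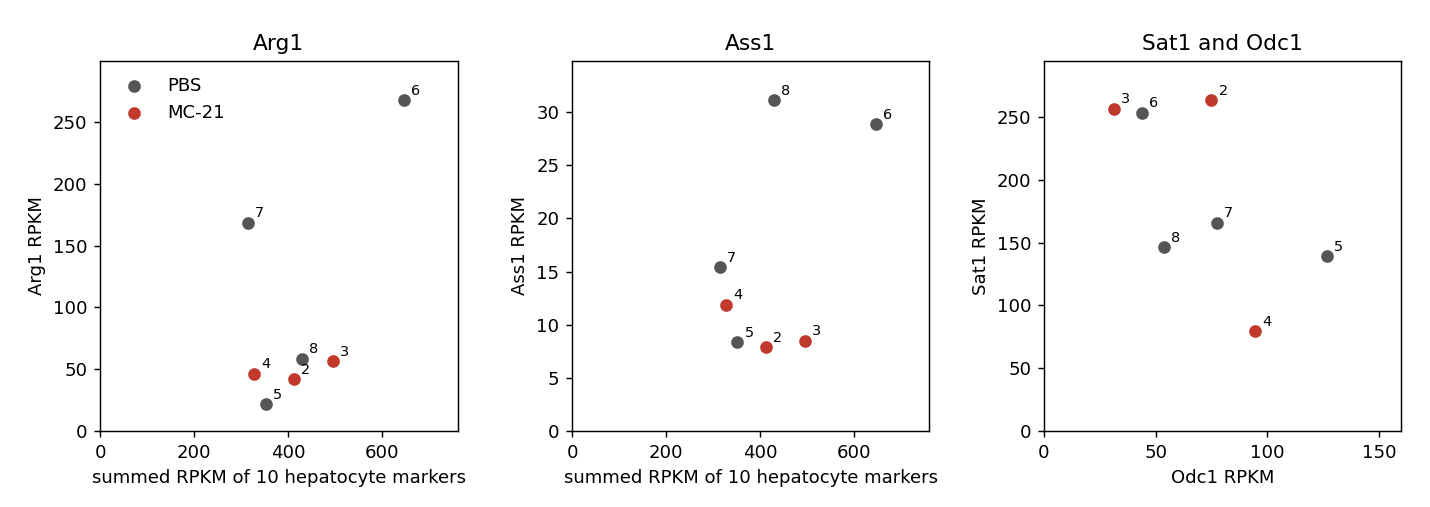
Left and centre, Arg1 and Ass1 RPKM against the summed RPKM of 10 hepatocyte markers, and right, Sat1 against Odc1 RPKM, all on linear axes from 0, with 1 point per library (PBS grey, MC-21 red, number = replicate). PBS replicate 6 is high on both axes of the first 2 panels and PBS replicate 7 has high Arg1 at the lowest marker sum, while MC-21 replicate 4 has the lowest Sat1.

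Among the other genes of arginine supply, 11 of 11 were in the table, 6 were tested and 0 were called by limma, with 1 at an unadjusted p under 0.05. That gene was Slc7a7, the light chain of a transporter that exports arginine in exchange for neutral amino acids. It had 3.01 ± 1.18 RPKM (SD, n = 4) in PBS and 0.431 ± 0.411 RPKM (SD, n = 3) in MC-21 neutrophils without overlap (log2 fold change -1.48, adjusted p = 0.0682 from limma), the lowest adjusted p of the 37 pathway genes tested. The MC-21 values of Slc7a7 lay near the floor, at 0.473, 3.72e-10 and 0.819 RPKM in replicates 2 to 4. The heavy chain shared by these transporters, Slc3a2, was abundant at 122 ± 21.1 and 108 ± 9.73 RPKM. The importer Slc7a1 was near 2 RPKM in both groups, at 1.70 ± 0.537 and 1.83 ± 0.361 RPKM. Of 9 genes for other uses of arginine and ornithine, 7 were in the table, 6 were tested, 0 were called and 1 had an unadjusted p under 0.05. Gatm, which takes arginine into creatine synthesis, had 60.5 ± 25.4 and 60.0 ± 23.8 RPKM. Gamt, the next enzyme of creatine synthesis, had 15 ± 5.41 and 6.74 ± 4.35 RPKM with overlap (log2 fold change -1.17, adjusted p = 0.235 from limma). Oat, which turns ornithine away from the polyamines, had 30.7 ± 3.00 and 29.4 ± 2.01 RPKM.

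In the 3 polyamine members the difference between the group means was smaller than the range of the PBS libraries. For Oaz1 it was larger than the narrow range of the MC-21 libraries. Odc1 (ENSMUSG00000011179.6, mm9 chromosome 12, 17551679 to 17558308, plus strand) had 127, 44.0, 77.4 and 53.6 RPKM in PBS replicates 5 to 8 and 75.0, 31.3 and 94.3 RPKM in MC-21 replicates 2 to 4. Values ran about as wide within each group as over all 7 libraries. The log2 fold change was -0.19 (standard error 0.42, 95% confidence interval -1.14 to 0.76, adjusted p = 0.862 from limma), and its sign turned when PBS replicate 5 (0.09) or MC-21 replicate 3 (0.27) was left out.

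Oaz1 (ENSMUSG00000035242.8, mm9 chromosome 10, 80289401 to 80292035, plus strand), whose translation depends on a frameshift that polyamines promote, had the narrowest range of the 9 members over the 7 libraries, relative to its level. It had 521, 434, 516 and 537 RPKM in PBS replicates 5 to 8 and 463, 458 and 460 RPKM in MC-21 replicates 2 to 4. The MC-21 libraries almost coincided and lay inside the PBS range. Its log2 fold change was -0.12 (standard error 0.12, 95% confidence interval -0.39 to 0.15, adjusted p = 0.684 from limma), and differences beyond 0.39 lower or 0.15 higher on the log2 scale were outside the interval. The value was 0.04 with median centring, so its direction depended on scaling. The pseudogene Oaz1-ps had at most 1.89e-06 RPKM.

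Sat1 (ENSMUSG00000025283.9, mm9 chromosome X, 151647675 to 151650992, minus strand) had 139, 253, 166 and 146 RPKM in PBS replicates 5 to 8 and 263, 257 and 79.3 RPKM in MC-21 replicates 2 to 4. Within the MC-21 group, replicate 4 had the lowest value of all libraries and replicates 2 and 3 the highest. The log2 fold change was 0.03 (standard error 0.40, 95% confidence interval -0.86 to 0.93, adjusted p = 0.977 from limma), and it ran from -0.26 without MC-21 replicate 2 to 0.60 without MC-21 replicate 4. Adgre1, a macrophage gene, was also lowest in MC-21 replicate 4, at 3.88 RPKM against 22.2 and 18.8 RPKM in replicates 2 and 3, and its part in the Sat1 level was not tested. The ratio of Sat1 to Odc1 was between 1.10 and 5.76 in PBS and between 0.841 and 8.19 in MC-21 neutrophils, and that of Oaz1 to Odc1 was between 4.12 and 10 and between 4.88 and 14.6, with overlap in both.

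Of 18 other polyamine and hypusine genes, 17 were in the table, 12 were tested, 0 were called by limma and 3 had an unadjusted p under 0.05, with a median log2 fold change of -0.21. Oaz2, a second antizyme, was the only 1 of the 37 pathway genes tested that was higher in MC-21 neutrophils without overlap. Another 4 were lower without overlap. Over all genes tested, 3.10% were higher and 10.2% lower in this way. Oaz2 had 67.9, 88.4, 84.2 and 87.2 RPKM in PBS replicates 5 to 8 and 103, 126 and 124 RPKM in MC-21 replicates 2 to 4 (log2 fold change 0.52 with a standard error of 0.15, limma's adjusted p = 0.178). Eif5a, the translation factor that carries hypusine, was the most abundant at 577 ± 54.1 RPKM (SD, n = 4) in PBS and 647 ± 152 RPKM (SD, n = 3) in MC-21 neutrophils. Dhps, which begins the hypusine modification of Eif5a with spermidine, had 12.6 ± 0.501 and 8.46 ± 2.71 RPKM without overlap (log2 fold change -0.57, adjusted p = 0.265). Spermidine synthase (Srm) had 65.0 ± 22.2 and 53.8 ± 16.4 RPKM, and spermine oxidase (Smox) had 41.7 ± 13.9 and 46.5 ± 13.1 RPKM. For Paox, the oxidase that acts on acetylated polyamines, the log2 fold change was -0.77 (limma, adjusted p = 0.319). Over the 5 pathway lists together, 37 genes were tested, 0 were called by limma or by either of the other gene tests run, 7 had an unadjusted p under 0.05 and 27 had a log2 fold change below 0. Their median was -0.16, beside -0.15 over all genes.

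**Figure D4:**
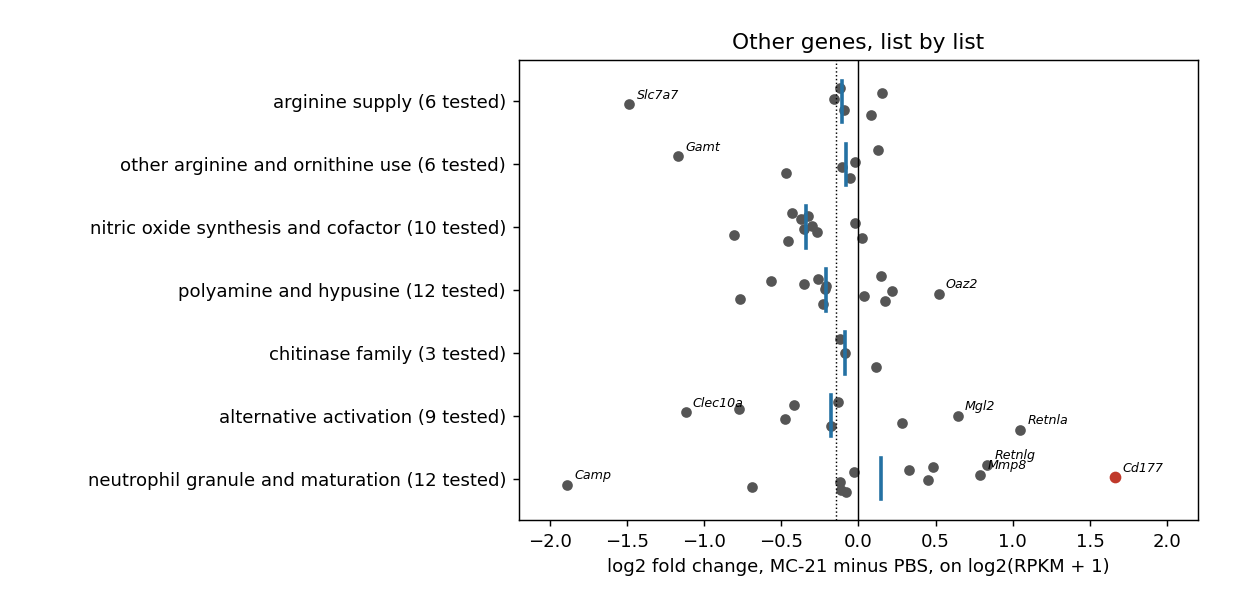
Log2 fold change, MC-21 minus PBS, on log2(RPKM + 1), of each tested gene of 7 lists that hold no member, with the list median in blue, a solid line at 0 and a dotted line at the median of all genes tested (-0.15). Cd177 (red) is the only gene of these lists with an adjusted p under 0.05.

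Chil3 was also set beside 18 genes of neutrophil granules and maturation, of which 16 were in the table and 12 were tested. Cd177, a neutrophil surface glycoprotein, was the only 1 called, with 11.6 ± 5.06 RPKM (SD, n = 4) in PBS and 37.2 ± 6.6 RPKM (SD, n = 3) in MC-21 neutrophils (log2 fold change 1.66, adjusted p = 0.0415 from limma). The list median was 0.15, with 6 of 12 genes below 0. The specific granule genes Camp (log2 fold change -1.89, adjusted p = 0.281) and Ltf (-0.69, adjusted p = 0.559) had values below 0. Above 0 were Retnlg (0.83, adjusted p = 0.281), Mmp8 (0.79, adjusted p = 0.651) and Ly6g (0.48, adjusted p = 0.624), all with overlap. Retnlg, the most abundant of the list, had 3541 ± 1537 RPKM in PBS and 5981 ± 1356 RPKM in MC-21 neutrophils. Mmp9 was at a log2 fold change of -0.03. Ngp was at 65.6 ± 16.1 and 59.3 ± 9.06 RPKM, and Lcn2 was at 955 ± 443 and 1203 ± 102 RPKM. Mpo, the defining gene of primary granules made in the marrow, was at most at 0.198 RPKM.

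Levels of the members are per length, but reads of 3′ libraries gather at transcript ends, so that an RPKM understates a long transcript such as Nos2 against a short one such as Oaz1 (1071 bases). In PBS neutrophils the order of mean RPKM was Oaz1, Chil1, Sat1, Chil3, Arg1, Odc1, Ass1, Arg2 and Nos2. Neighbours from Chil1 to Odc1 overlapped between libraries, as did Arg2 and Nos2, while Oaz1 stood clear of Chil1, Odc1 of Ass1 and Ass1 of Arg2. In MC-21 neutrophils the order was Chil3, Oaz1, Sat1, Chil1, Odc1, Arg1, Nos2, Ass1 and Arg2, with overlap between Sat1 and Chil1, Odc1 and Arg1, and Nos2 and Ass1. Over all 7 libraries the mean of Oaz1 was at the percentile 98.4 of the genes tested, Chil3 at 98, Chil1 at 95.8 and Sat1 at 95.7. Nos2 was at 41.5 and Arg2 at 22.5.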

How the data were processed

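Neutrophils of 7 livers (4 PBS, 3 MC-21) were profiled by 3′ RNA-seq on a NextSeq 500. The authors mapped reads to mm9 with HISAT 0.1.5, used SAMtools, and deposited RPKM values per gene from Partek Genomics Suite 6.6. The annotation, the rule for reads with several matches and any use of molecular barcodes are not given in the sources used here. No count test was run. The depth was read from RPKM steps in genes with 1 annotated transcript: of 982 genes, 449 gave a value within 1% of the most frequent 1, and 74.7% of 5172 low values then lay within 0.1 of a whole read.

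MC-21 and PBS libraries were compared on log2(RPKM + 1) with limma 3.58.1 (lmFit, eBayes with a trend) in R 4.3.3, for genes whose mean reached 1 RPKM, adjusted by Benjamini-Hochberg over all genes tested. A fold change on this scale understates that of low genes. Single values had an exact permutation test over 35 splits. No column of sample values was left unused (0). The authors' cutoffs, a 2-fold change with an unadjusted p under 0.05, were also applied. They were applied to the p and fold change of limma in place of the authors' t-test, so the counts are not those of the study. The fit was tested on simulated data.

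The members and lists were chosen with earlier results of these data known. All members are named. Of each other list, genes with an adjusted p under 0.05, or else up to 4 with the largest changes, and up to 3 with the highest levels could be named. Others were named for their place in the pathway. Pycr1, Azin2, Aoc1 and Chit1 are not analysed here. Promoter windows came from RefSeq (GRCm38.p6), and coordinates from the mm9 annotation. The tested alternatives were a pseudocount of 0.1, no filter, a minimum mean of 5 RPKM, quantile normalization, median centring, a fit with no trend, the authors' t-test on either scale, and leaving out each library. Plots used matplotlib 3.10.9 in Python 3.11.15.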

Additional observations from a re-analysis of the deposited data

Results flagged for a closer look

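In 46 genes (the 9 members and 37 pathway genes tested), the 4 PBS libraries were screened for a library whose gap to its nearest neighbour, over the group's range, exceeded Dixon's 95% critical value, which chance passes in about 1 in 20 groups. None of the members passed it, and 2 pathway genes did. Nostrin, which regulates the endothelial nitric oxide synthase, had 10.6 RPKM in PBS replicate 7 and 17.4 to 18.4 RPKM in the other PBS libraries (ratio 0.876). The methionine salvage gene Mtap had 5.99 RPKM in PBS replicate 6 and 9.41 to 10 RPKM in the others (ratio 0.844). The MC-21 group, with 3 libraries, was not screened.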

How the results depend on the processing

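The call of Chil3 kept an adjusted p under 0.05 in 8 of 15 alternatives, and its log2 fold change was above 0 in all of them. The number of members called, 1 in the fit reported, was 0 with no filter on low values (Chil3 adjusted p = 0.155 from limma), with a t-test on log2 values (adjusted p = 0.225) or RPKM values (adjusted p = 0.301), and it was between 0 and 1 on leaving out each library. Over all genes, the 60 calls became 4 with no filter, 4 with a t-test on log2 values, 5 with a t-test on RPKM values, and between 9 (without PBS replicate 8) and 102 (without PBS replicate 6) without a library. With the unadjusted cutoffs, an alternative set added after the data were seen, 2 members passed in the reported fit, 1 with a t-test on RPKM values, and between 2 and 4 without a library. The pathway lists had 0 calls throughout. Signs turned in members near 0, with Odc1 between -0.51 and 0.27 and Sat1 between -0.26 and 0.60 on leaving out each library, and the Oaz1 log2 fold change was 0.044 with median centring. The causes of these changes were not tested. With median centring, which moved the median of all genes from -0.15 to 0.02, Nos2 was at 2.00, Chil3 at 2.63, Arg2 at 1.03, Arg1 at -0.69, Ass1 at -0.77 and Chil1 at -0.15. No paired analysis was possible because the groups share no replicate numbers (2 to 4 and 5 to 8). With 1.59 reads per RPKM and kb in the shallowest library, differences in Arg2 and in PBS Nos2 rest on few reads, and intervals over 7 livers are wide.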

Other observations

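Of 10 genes used as marks of alternative activation beside Arg1 and Chil3, 9 were tested, 0 were called by limma and 1 had an unadjusted p under 0.05, with a median log2 fold change of -0.18. That gene was Clec10a, a lectin of macrophages and dendritic cells, at 2.14 ± 0.761 RPKM (SD, n = 4) in PBS and 0.515 ± 0.695 RPKM (SD, n = 3) in MC-21 neutrophils, without overlap (log2 fold change -1.12, adjusted p = 0.178). Retnla, a secreted protein often measured with Chil3, had 9.68, 13.1, 0 and 2.11 RPKM in PBS replicates 5 to 8 and 5.62, 5.25 and 20.4 RPKM in MC-21 replicates 2 to 4 (log2 fold change 1.05, adjusted p = 0.615). Its groups overlapped where those of Chil3 did not. The receptor chain Il4ra had 74.0 ± 9.61 and 91.0 ± 19.9 RPKM, and the mannose receptor Mrc1 had 19.5 ± 5.59 and 19.9 ± 12.1 RPKM.

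Among 5859 genes compared, whose mean reached 5 RPKM, the pattern over the 7 libraries most like that of Chil3 on log2(RPKM + 1) was that of Id2, an inhibitor of helix-loop-helix transcription factors, with Pearson's r of 0.995. Id2 had 184 to 306 RPKM in PBS and 425 to 701 RPKM in MC-21 neutrophils, and r was 0.976 after the group means were taken out. Cebpd (r = 0.973) and Srp9 (r = 0.972) followed. The genes most like Oaz1 were Trip10 (r = 0.980), Dcps (r = 0.972) and Ptrf (r = 0.971). These values were picked as the highest of many, the libraries share depth and composition, and they are given as a description without a test.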
